A study of Mus musculus with 13 samples.

Results

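Brains of mice held at a simulated altitude with the agent 6-OHG were compared with brains of mice kept under normal conditions. The animals of both groups were Balb/c males aged 6 to 8 weeks. For the 6-OHG group (4 libraries) they were exposed to 8000 m for 24 h and treated with 6-OHG. For the Con group (4 libraries) they stayed under normal conditions without 6-OHG. These are 8 of the 13 libraries of the series, and 13905 of its 37636 genes averaged 1 FPKM or more over all 13 and were tested. FPKM are fragment counts scaled to transcript length and to the mapped fragments of a library. Nearest that limit were Zfp229 with a mean of 1.001 and, just outside, Cdca7 with 0.99996. The other 5 libraries, at altitude without 6-OHG, entered only that mean and the estimate of spread and were not compared. Altitude and 6-OHG both differ between the 2 groups, so their parts in any difference below cannot be told apart. Nor can the part of anything else that differed with the groups, such as the handling of samples. The series title names PI3K/AKT signalling in cognitive dysfunction at high altitude as its subject. The labels name the tissue as brain without a region, name 6-OHG without a dose, and do not say whether the 4 libraries of a group came from separate animals, so the p-values measure only how far these samples differ, and part of that may be technical.

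Cells respond to low oxygen through the hypoxia-inducible factors. Their alpha subunits are hydroxylated and degraded while oxygen is plentiful; when it is scarce they pair with ARNT on DNA and raise genes for glycolysis, vessel growth, iron uptake and mitochondrial turnover. Stress also raises adrenal corticosteroids, whose receptor induces its own gene set in brain. In the brain, cholesterol is made locally and much of it goes into myelin, the sheath laid down by oligodendrocytes.

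Neuronal, astrocyte, microglial and oligodendrocyte markers were present in all 8 libraries, and the summed level of the 10 neuronal markers was 878, 891, 917 and 898 FPKM in Con and 856, 844, 759 and 785 FPKM in 6-OHG. Transcripts of other organs were also present. The 23 liver genes summed to 70.8, 69.6, 82.1 and 62.3 FPKM in Con 1 to 4 and to 1.03, 1.88, 1.77 and 1.24 FPKM in 6-OHG 1 to 4, where 4 of the 23 were listed at 0 in every library. A list of 20 heart muscle genes, drawn up after the values were seen, summed to 80.1, 89.4, 57.0 and 35.1 FPKM in Con and 18.4, 12.9, 15.8 and 12.8 FPKM in 6-OHG. Red cell genes summed to between 108 and 357 FPKM in Con and between 40.9 and 176 FPKM in 6-OHG. How the liver, heart and red cell transcripts came into the libraries was not tested. Total FPKM ran from 268208 to 299371 in Con and from 272992 to 278335 in 6-OHG; read totals were not given in the sources used here, so the depth is unknown. Transcripts encoded in mitochondria took 22.95 ± 2.58% of FPKM in Con and 24.02 ± 1.13% in 6-OHG (SD, n = 4 each; two-sided exact permutation test, p = 0.514). The correlation of log2 levels between libraries ran from 0.962 to 0.989 within Con, from 0.957 to 0.983 within 6-OHG and from 0.932 to 0.969 between the groups, with Con 4 and 6-OHG 2 the least like the rest of their groups.

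**Figure D1:**
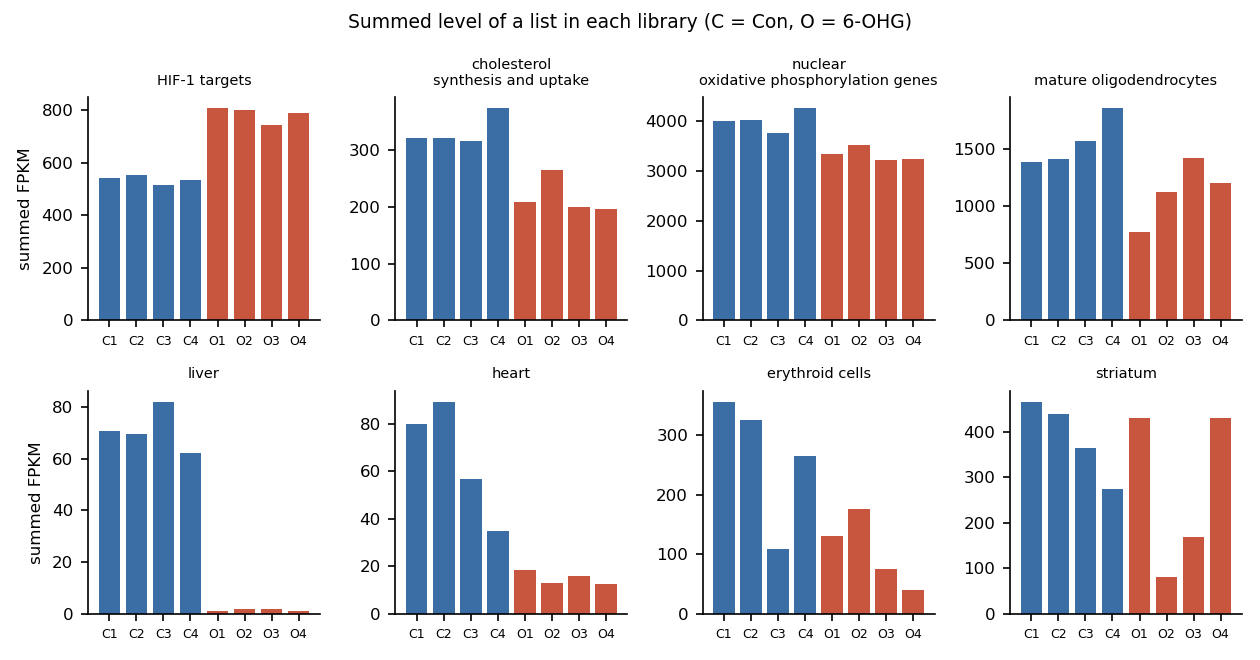
Summed FPKM of 8 gene lists in each library, with Con 1 to 4 (C1 to C4, blue) and 6-OHG 1 to 4 (O1 to O4, red) on the x axis and a linear y axis from 0. The HIF-1 targets are higher in each 6-OHG library, liver and heart transcripts are higher in each Con library, and the striatal markers are low in 6-OHG 2 and 3 only.

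In all, 4268 of 13905 genes (30.7%) passed the test, limma on log2(FPKM + 1) with an adjusted p under 0.05, of which 2270 (16.3%) were higher and 1998 (14.4%) lower in 6-OHG. The 2 groups' libraries did not overlap for 3913 genes (28.1%), with every 6-OHG library above every Con library for 2170 (15.6%) and below for 1743 (12.5%). Counts of list members called below are to be read against those 16.3% and 14.4% of all genes. Most changes were small. The median size of a log2 change was 0.38 over the called genes and 0.19 over all genes tested, 74 called genes were higher and 57 lower by at least 1, and the median change over all genes was 0.00. Fold changes throughout are on the log2(FPKM + 1) scale, which understates the change of low genes. When FPKM were rescaled to equal sums over nuclear genes, 64.2% of the calls were rises, against 53.2% with FPKM as deposited. Because tissue RNA was measured in bulk, fewer cells of a type and less RNA per cell cannot be told apart.

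**Figure D2:**
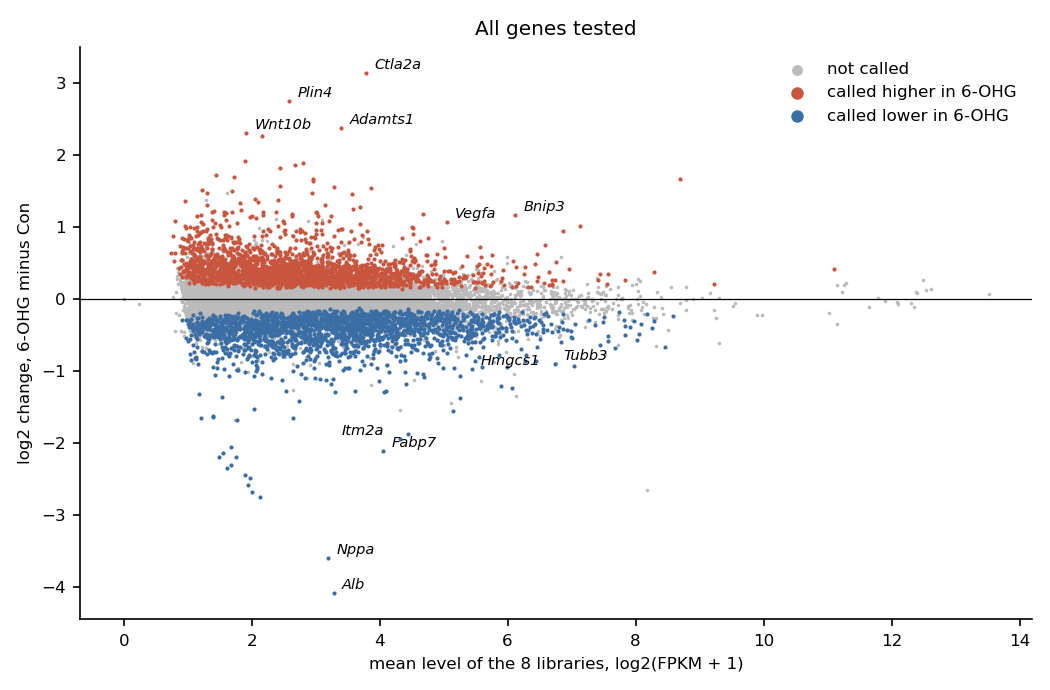
Log2 change (6-OHG minus Con, y axis) against the mean level of the 8 libraries in log2(FPKM + 1) (x axis) for the 13905 genes tested, with called genes in red (higher) and blue (lower). Ctla2a (3.14) and Plin4 (2.74) lie highest, and Alb (-4.08) and Nppa (-3.59) lowest.

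Targets of HIF-1 were higher in 6-OHG. Of 36 members tested, 25 rose and 1 fell, against 16.3% and 14.4% of all genes, and their median log2 change was 0.51 against 0.00. Of those 25, 5 had a Con mean under 1 FPKM. They were tested only through higher levels elsewhere, in 6-OHG or in the libraries not compared. Of the 30 members with a Con mean of 1 FPKM or more 20 rose. The list's summed level was 540, 552, 514 and 534 FPKM in Con and 807, 798, 743 and 789 FPKM in 6-OHG. Bnip3, a receptor on mitochondria that marks them for removal, stood at 43.2, 41.8, 42.4 and 39.6 FPKM in Con 1 to 4 and 109, 93.1, 83.4 and 95.3 FPKM in 6-OHG 1 to 4. Every 6-OHG library lay far above every Con library, and the log2 change was 1.16 ± 0.07 (SE, adjusted p = 7.51e-07). Vegfa, the main growth factor for vessels, stood at 19.96, 23.5, 19.4 and 19.01 FPKM in Con 1 to 4 and 40.8, 41.5, 49.4 and 43.7 FPKM in 6-OHG 1 to 4 (log2 change 1.06 ± 0.08 SE, adjusted p = 4.19e-06). Tfrc, the transferrin receptor that carries iron into cells, stood at 15.9, 17.04, 18.1 and 17.1 FPKM in Con 1 to 4 and 30.4, 30.02, 30.1 and 30.7 FPKM in 6-OHG 1 to 4 (log2 change 0.80 ± 0.06 SE, adjusted p = 4.93e-06). Its 4 values in 6-OHG were nearly the same, well above the highest Con value. Egln1, the oxygen-sensing prolyl hydroxylase that marks HIF-alpha for degradation and is itself a target, rose by 0.54, from 16.2 ± 0.6195 to 24.1 ± 0.571 FPKM (SD, n = 4 each). Kdm3a, a histone demethylase, rose by 0.74, from 5.51 ± 0.567 to 9.83 ± 0.586 FPKM (SD, n = 4 each).

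Further members also rose. Pdk1, which restrains pyruvate entry into mitochondria, rose by 0.55; Stc1, a secreted glycoprotein, by 1.09; and Adm, the vasodilator adrenomedullin, by 0.82. Ndrg1 was the member that fell, by 0.62, from 15.7 ± 5.88 to 9.66 ± 2.49 FPKM (SD, n = 4 each); it is a hypoxia target in many cells and in brain is abundant in oligodendrocytes. That call was lost without Con 3 or 4 or without 6-OHG 1, 3 or 4. The 10 members that did not pass the test included Ddit4 at 0.02, Pfkfb4 at -0.01 and P4ha1 at -0.12. Pdk1, Stc1, Adm, Ndrg1 and those 3 were chosen after their values were seen, as were further list members named below outside the 5 with the smallest p in their list.

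**Figure D3:**
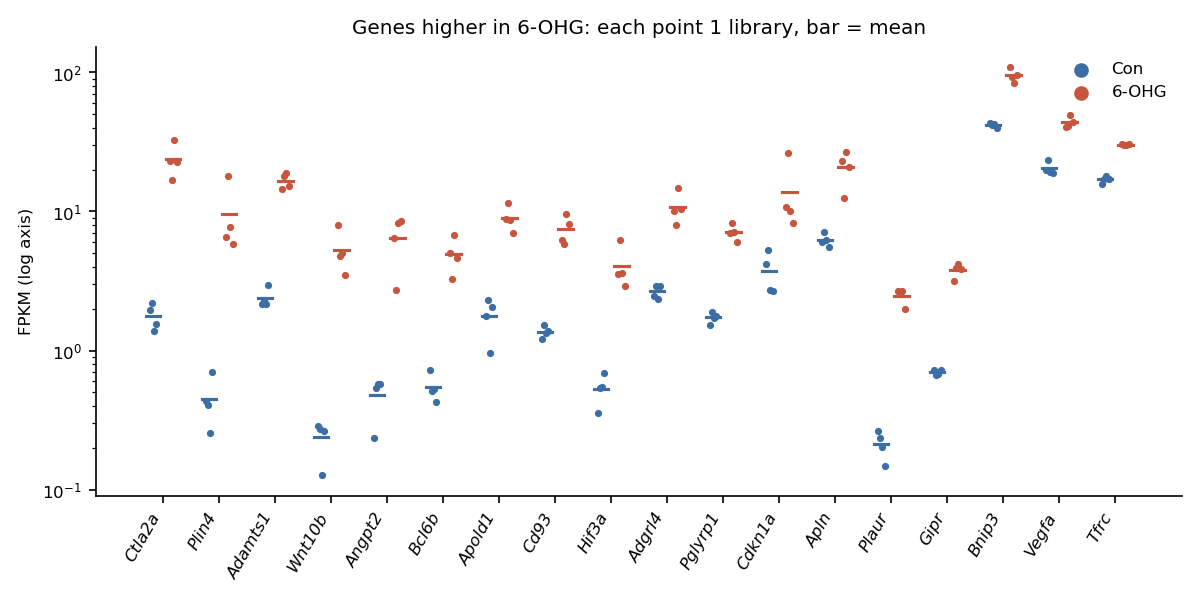
FPKM of 18 genes in each library on a log axis, with Con in blue and 6-OHG in red, 1 point per library and a bar at the mean of 4. All 18 genes have every 6-OHG library above every Con library, which the naming rule required of the 15 largest rises among them. 6-OHG 2 is the highest for Plin4, Cdkn1a and Hif3a and the lowest for Ctla2a, Angpt2 and Apln.

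The bases before the start of HIF-1 targets are shown because the members moved together and HIF binds a short core that can be read in them. The core was searched as ACGTG or GCGTG on both strands, CACGT and CACGC on the strand printed; matches may overlap, and CACGTG holds the first on both strands. In the 250 bases before the start lying farthest 5′ of each gene (RefSeq, GRCm38.p6), 13 of the 17 risen targets in the table held a match, 22 of the 27 tested targets did, and 38.64% of all 27025 genes did. The last share covers genes whether tested here or not, so it is not matched to the list in level. The share among risen targets was not above that among all tested targets. The 4 windows printed are those of risen members with a match and the smallest p whose bases do not run into an annotated exon by more than 30 bases. Capitals mark the core.
Bnip3, chr7:138909507-138909756, minus strand: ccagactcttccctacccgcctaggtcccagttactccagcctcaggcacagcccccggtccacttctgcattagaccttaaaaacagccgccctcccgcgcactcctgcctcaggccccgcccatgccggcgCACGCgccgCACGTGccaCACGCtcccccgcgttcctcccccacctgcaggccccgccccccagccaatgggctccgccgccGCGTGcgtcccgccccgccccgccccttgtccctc
Tfrc, chr16:32608646-32608895, plus strand: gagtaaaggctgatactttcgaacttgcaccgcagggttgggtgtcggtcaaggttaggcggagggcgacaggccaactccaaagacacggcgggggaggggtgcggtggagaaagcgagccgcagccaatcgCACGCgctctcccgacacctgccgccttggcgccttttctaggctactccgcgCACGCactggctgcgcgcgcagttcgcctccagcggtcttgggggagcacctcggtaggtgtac
Pdk1, chr2:71872974-71873223, plus strand: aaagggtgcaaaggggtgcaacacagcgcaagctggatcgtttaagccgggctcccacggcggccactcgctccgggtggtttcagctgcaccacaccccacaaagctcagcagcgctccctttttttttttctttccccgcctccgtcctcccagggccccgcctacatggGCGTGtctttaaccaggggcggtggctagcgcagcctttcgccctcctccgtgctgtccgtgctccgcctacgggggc
Hk2, chr6:82774455-82774704, minus strand: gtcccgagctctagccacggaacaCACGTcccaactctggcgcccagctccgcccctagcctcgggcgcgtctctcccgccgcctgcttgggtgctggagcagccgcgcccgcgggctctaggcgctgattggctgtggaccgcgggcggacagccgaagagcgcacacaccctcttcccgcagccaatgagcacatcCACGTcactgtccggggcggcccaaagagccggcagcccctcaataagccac
The Bnip3 window holds 5 matches, the windows of Tfrc and Hk2 hold 2 each and that of Pdk1 holds 1. A match describes the letters only, since no binding was measured.

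Among the HIF subunits and sensors themselves, 3 of 11 rose, against 16.3% of all genes, and the other 8 did not pass the test. Of the 10 with a Con mean of 1 FPKM or more 2 rose. Hif3a, a HIF-alpha relative whose products can restrain the others, stood at 0.356, 0.5396, 0.542 and 0.693 FPKM in Con 1 to 4 and 3.53, 6.21, 3.599 and 2.91 FPKM in 6-OHG 1 to 4. The log2 change was 1.69 ± 0.17 (SE, adjusted p = 4.82e-05). Its Con mean was under 1 FPKM, so it was tested only through higher levels elsewhere. Cited2, which competes with HIF-alpha for its coactivator, rose from 9.12 ± 0.944 to 13.8 ± 2.74 FPKM (SD, n = 4 each) (log2 change 0.53 ± 0.12 SE, adjusted p = 0.00593). Hif1a, the alpha subunit itself, changed by 0.16 (adjusted p = 0.177), and its relative Epas1 by -0.16 (adjusted p = 0.171). Arnt, their partner, went from 5.07 ± 0.339 to 5.59 ± 0.273 FPKM (SD, n = 4 each) and Vhl, which recognises the hydroxylated alpha subunit, from 14.5 ± 1.498 to 13.9 ± 0.929 FPKM (SD, n = 4 each); neither passed the test.

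Glycolytic genes rose while nuclear genes of oxidative phosphorylation fell. Of 17 glycolysis genes 10 rose, against 16.3% of all genes, and the other 7 did not pass the test, with a median log2 change of 0.26. Of the 16 with a Con mean of 1 FPKM or more 9 rose, and Hk2 was tested only through higher levels elsewhere. Gpi1, the second enzyme of the pathway, stood at 91.5, 87.2, 85.2 and 87.9 FPKM in Con 1 to 4 and 133, 122, 115 and 132 FPKM in 6-OHG 1 to 4 (log2 change 0.51 ± 0.07 SE, adjusted p = 0.000201). Ldha, which turns pyruvate into lactate, stood at 77.1, 76.96, 64.8 and 54.7 FPKM in Con 1 to 4 and 117, 98.3, 96.7 and 111 FPKM in 6-OHG 1 to 4 (log2 change 0.63 ± 0.10 SE, adjusted p = 0.00086). Hk2, the inducible hexokinase whose promoter window is printed above, was low in Con, at 0.351, 0.461, 0.498 and 0.517 FPKM, and 1.09, 1.52, 1.38 and 1.26 FPKM in 6-OHG. Eno1 rose by 0.44 and Tpi1 by 0.34, while Gapdh (-0.09), Aldoc (-0.03) and Ldhb (-0.09) did not pass. Aldoa has 2 entries in the table, of which the one with the higher mean was used.

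Of 74 nuclear-encoded subunits of the respiratory chain and ATP synthase, 51 fell, against 14.4% of all genes. The other 23 did not pass the test, and the median was -0.34. For 51 members every 6-OHG library lay below every Con library, against 12.5% of all genes. Atp5d, a subunit of ATP synthase, stood at 52.99, 55.03, 45.4 and 52.9 FPKM in Con 1 to 4 and 33.3, 36.1, 31.8 and 32.9 FPKM in 6-OHG 1 to 4 (log2 change -0.60 ± 0.06 SE, adjusted p = 5.9e-05). Ndufa2, of complex I, stood at 39.6, 42.1, 37.97 and 42.1 FPKM in Con 1 to 4 and 21.1, 22.3, 27.5 and 23.9 FPKM in 6-OHG 1 to 4 (log2 change -0.75 ± 0.09 SE, adjusted p = 0.000135). Ndufa13 fell by 0.65, Cox5a of complex IV by 0.57 and Atp5j2 by 0.50. The subunit genes Sdha (-0.03) and Atp5a1 (0.02) stood close to 0 change. These transcripts are short: their median summed exon length is 1737 bases, against 4102.5 over the genes tested. Changes followed length weakly (Spearman rho 0.19) and not steadily. The median log2 change was -0.07 under 1 kb of exon, -0.10 at 1 to 2 kb, -0.04 at 2 to 4 kb and 0.05 over 4 kb. Of genes with 1 to 2 kb of exon 158 rose and 364 fell, and of genes over 4 kb 1516 rose and 756 fell. With a trend on length and GC content removed, 46 of the 74 subunits still passed as lower. Of the 13 genes encoded in mitochondria, 1 rose, mt-Nd5, from 1902 ± 273 to 2510 ± 109.8 FPKM (SD, n = 4 each) (log2 change 0.41 ± 0.14 SE, adjusted p = 0.0381); its call was lost in 11 of the other settings, 7 of them leaving out 1 library (all but Con 4).

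Genes of blood vessels were among the largest rises, which were named only from called genes whose Con and 6-OHG libraries do not overlap. Ctla2a, a cathepsin inhibitor-like gene (chromosome 13, 60934155 to 60936625, GRCm38), had the largest of all. It stood at 1.96, 2.203, 1.38 and 1.55 FPKM in Con 1 to 4 and 22.9, 16.97, 32.5 and 22.8 FPKM in 6-OHG 1 to 4, and changed by 3.14 ± 0.15 (SE, adjusted p = 2.29e-07). Its close paralog Ctla2b also rose, from 0.465 ± 0.1797 to 1.94 ± 0.466 FPKM (SD, n = 4 each), so reads could be split between the pair. Adamts1, a secreted protease that cuts proteoglycans and restrains angiogenesis, stood at 2.16, 2.32, 2.17 and 2.97 FPKM in Con 1 to 4 and 14.6, 18.1, 18.8 and 15.2 FPKM in 6-OHG 1 to 4 (log2 change 2.37 ± 0.10 SE, adjusted p = 7.03e-08). Angpt2, the ligand that loosens vessels by opposing Tie2 signalling, stood at 0.233, 0.538, 0.574 and 0.571 FPKM in Con 1 to 4 and 6.41, 2.72, 8.32 and 8.47 FPKM in 6-OHG 1 to 4 (log2 change 2.26 ± 0.24 SE, adjusted p = 6.38e-05). The lowest 6-OHG value was that of replicate 2. Apln, the ligand apelin made by sprouting tip cells, stood at 5.99, 7.17, 6.28 and 5.58 FPKM in Con 1 to 4 and 23.02, 12.5, 26.9 and 20.7 FPKM in 6-OHG 1 to 4 (log2 change 1.54 ± 0.19 SE, adjusted p = 0.000135). Bcl6b, an endothelial repressor, rose by 1.91; Apold1, an endothelial early-response gene, by 1.86; Cd93, a lectin-like endothelial receptor, by 1.82; and Adgrl4, an endothelial adhesion receptor, by 1.66. Plaur, the urokinase receptor, went from 0.213 ± 0.0497 to 2.48 ± 0.331 FPKM (SD, n = 4 each) and Pglyrp1, a peptidoglycan recognition protein, from 1.73 ± 0.145 to 7.11 ± 0.9403 FPKM (SD, n = 4 each). Bcl6b, Ctla2b and Plaur had Con means under 1 FPKM, so they were tested only through higher levels elsewhere.

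Of 21 angiogenic ligands and receptors tested, 8 rose and 2 fell, against 16.3% and 14.4% of all genes. Angpt2, Dll4 and Angptl4 had Con means under 1 FPKM and were tested only through higher levels elsewhere. Of the 17 members with a Con mean of 1 FPKM or more 5 rose. Dll4, the Notch ligand of tip cells, stood at 0.749, 0.994, 0.723 and 0.847 FPKM in Con 1 to 4 and 3.004, 2.56, 4.11 and 3.14 FPKM in 6-OHG 1 to 4 (log2 change 1.19 ± 0.10 SE, adjusted p = 6.87e-06). Angptl4, a secreted inhibitor of lipoprotein lipase, rose by 1.22, and Flt1, a VEGF receptor, by 0.64. The members that fell were Tek, the Tie2 receptor, by 0.71 from 3.07 ± 0.421 to 1.505 ± 0.411 FPKM (SD, n = 4 each), and Vegfb, by 0.43, which lost its call with the trend on length and GC content removed. Kdr, the main VEGF receptor, changed by 0.27 (adjusted p = 0.173) and Pgf by 0.01. Endothelial markers did not move as a block: of 16 tested, 5 rose and 4 fell, against 16.3% and 14.4% of all genes. Pecam1, a junctional adhesion protein, stood at 2.497, 3.18, 2.75 and 3.48 FPKM in Con 1 to 4 and 5.04, 5.301, 6.35 and 5.28 FPKM in 6-OHG 1 to 4 (log2 change 0.71 ± 0.08 SE, adjusted p = 0.00012). Cdh5, the cadherin of endothelial junctions, rose by 0.74 and Esam by 0.86. Itm2a, a membrane protein of endothelium, stood at 31.1, 29.7, 27.9 and 33.9 FPKM in Con 1 to 4 and 8.42, 8.15, 5.87 and 6.62 FPKM in 6-OHG 1 to 4 (log2 change -1.95 ± 0.13 SE, adjusted p = 1.72e-06).

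At the blood-brain barrier 4 of 13 genes rose and 2 fell, against 16.3% and 14.4% of all genes. Slc2a1, the glucose transporter of the barrier, stood at 18.3, 20.7, 18.6 and 21.6 FPKM in Con 1 to 4 and 27.03, 37.04, 32.4 and 26.8 FPKM in 6-OHG 1 to 4 (log2 change 0.61 ± 0.11 SE, adjusted p = 0.00116). Mfsd2a, which carries omega-3 lipids into brain, rose from 7.24 ± 0.595 to 13.7 ± 4.202 FPKM (SD, n = 4 each). Slco1a4, an organic anion transporter, stood at 8.12, 8.44, 7.66 and 8.97 FPKM in Con 1 to 4 and 4.48, 4.602, 4.47 and 3.17 FPKM in 6-OHG 1 to 4 (log2 change -0.85 ± 0.12 SE, adjusted p = 0.000293). Its relative Slco1c1, which carries thyroxine, fell by 0.77. Abcb1a, the P-glycoprotein pump, changed by -0.03 (adjusted p = 0.868). Of 10 pericyte and smooth muscle markers 3 rose and 3 fell, against 16.3% and 14.4% of all genes. Abcc9, a subunit of the pericyte potassium channel, rose by 0.84, Pdgfrb by 0.32 and Kcnj8 by 0.52, and Vtn fell by 0.50, Tagln by 0.61 and Acta2, smooth muscle actin, by 0.80. Leaving out 1 library lost the call of Tagln (6-OHG 3 or 4), Acta2 (6-OHG 1) and Kcnj8 (Con 1 or 6-OHG 3).

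Of 24 glucocorticoid-induced genes tested 14 rose, against 16.3% of all genes, and the other 10 did not pass the test. Their median of 0.71 was the highest of the 27 pathway lists, but members with a Con mean under 1 FPKM enter it. The rank therefore supports nothing about the list. Of the 20 with a Con mean of 1 FPKM or more 11 rose. The other 3 that rose, Plin4 and Hif3a among them, were tested only through higher levels elsewhere. Plin4, a coat protein of lipid droplets, stood at 0.432, 0.407, 0.256 and 0.705 FPKM in Con 1 to 4 and 6.58, 18.001, 7.78 and 5.87 FPKM in 6-OHG 1 to 4 (log2 change 2.74 ± 0.27 SE, adjusted p = 3.37e-05). In 6-OHG replicate 2 stood above the other 3. Fkbp5, a cochaperone that restrains the glucocorticoid receptor, stood at 2.82, 2.69, 2.86 and 2.69 FPKM in Con 1 to 4 and 7.77, 9.82, 6.51 and 6.42 FPKM in 6-OHG 1 to 4 (log2 change 1.18 ± 0.12 SE, adjusted p = 4.15e-05). Cdkn1a, the cell cycle inhibitor p21, stood at 4.22, 5.28, 2.71 and 2.68 FPKM in Con 1 to 4 and 10.8, 26.4, 10.1 and 8.302 FPKM in 6-OHG 1 to 4 (log2 change 1.55 ± 0.28 SE, adjusted p = 0.00152), again highest in replicate 2. Sult1a1, a sulfotransferase, rose from 4.01 ± 0.552 to 10.3 ± 2.79 FPKM (SD, n = 4 each), the metallothioneins Mt1 and Mt2 rose by 0.94 and 1.02, and Zbtb16, a transcription factor, by 1.06. Tsc22d3, the glucocorticoid-induced leucine zipper, changed by 0.12 (adjusted p = 0.71) and Sgk1 by 0.77 (adjusted p = 0.0684). The list's summed level was 653, 946, 642 and 612 FPKM in 6-OHG 1 to 4 and 394 to 480 FPKM in Con.

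Of 21 clock genes 10 rose and 1 fell, against 16.3% and 14.4% of all genes, and the other 10 did not pass the test; the median was 0.34. Per1, a repressor of the clock that glucocorticoids also induce, stood at 12.1, 12.2, 11.95 and 8.53 FPKM in Con 1 to 4 and 21.9, 18.1, 19.1 and 18.7 FPKM in 6-OHG 1 to 4 (log2 change 0.75 ± 0.11 SE, adjusted p = 0.000375). Per3 rose by 0.71, Ciart by 0.97, Tef by 0.61 and Nr1d2 by 0.52. Nfil3, a repressor that opposes Tef, was the member that fell, by 0.36, and lost its call with the trend on length and GC content removed. The activators Clock (0.04, adjusted p = 0.705) and Arntl (-0.17, adjusted p = 0.287) did not pass, and the labels used here give no hour of sampling. Among 13 lipid droplet genes 3 rose, namely Plin4, Hilpda (0.44) and the lipase Pnpla2 (1.15, from 4.67 ± 0.757 to 12.3 ± 5.98 FPKM (SD, n = 4 each), with replicate 2 the highest at 21.1 FPKM), and Fabp7 fell. The share called is near the 30.7% of all genes. Plin4 was tested only through higher levels elsewhere, and of the 12 with a Con mean of 1 FPKM or more 2 rose. Fabp7, the fatty acid carrier of astrocytes and precursors, stood at 24.9, 24.7, 27.3 and 26.8 FPKM in Con 1 to 4 and 4.32, 5.57, 5.08 and 6.02 FPKM in 6-OHG 1 to 4 (log2 change -2.11 ± 0.13 SE, adjusted p = 1.02e-06).

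Cholesterol synthesis had the lowest median of the pathway lists, -0.63: of 25 genes 17 fell and 1 rose, against 14.4% and 16.3% of all genes. Srebf2, the transcription factor that drives the pathway, stood at 24.997, 27.9, 23.7 and 24.6 FPKM in Con 1 to 4 and 14.9, 14.5, 13.9 and 13.5 FPKM in 6-OHG 1 to 4 (log2 change -0.79 ± 0.06 SE, adjusted p = 4.19e-06). Hmgcs1, which makes the precursor of mevalonate, stood at 55.8, 55.8, 55.7 and 58.3 FPKM in Con 1 to 4 and 25.8, 37.6, 24.6 and 26.3 FPKM in 6-OHG 1 to 4 (log2 change -0.98 ± 0.12 SE, adjusted p = 0.00016). All 4 6-OHG libraries lay below every Con library, with replicate 2 the least changed. Among enzymes further along the pathway, Mvk fell by 0.60, Fdps by 0.72, Sqle by 0.78 and Msmo1 by 0.96. Lss, which closes the sterol ring, was the member that rose, by 0.30; that call was lost without Con 1, Con 3 or 6-OHG 2. The sterol element core TCACNCCAC, searched on either strand, was held by 1.032% of all genes, whether tested here or not. Among 12 fallen members in the table it was found in the window of 1, Hmgcs1. That window, chosen because it holds the match, is given with the match in capitals.
Hmgcs1, chr13:119690101-119690350, plus strand: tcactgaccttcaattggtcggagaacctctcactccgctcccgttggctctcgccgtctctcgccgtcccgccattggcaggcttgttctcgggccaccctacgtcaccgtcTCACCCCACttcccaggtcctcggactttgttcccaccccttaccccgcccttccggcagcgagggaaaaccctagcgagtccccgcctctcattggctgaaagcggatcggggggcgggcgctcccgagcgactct

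Genes of the oligodendrocyte lineage were lower. All 14 mature oligodendrocyte markers had negative changes, 5 of them passing the test, against 14.4% of all genes lower, with a median of -0.49. Ugt8a, which makes the myelin lipid galactocerebroside, stood at 29.3, 29.7, 33.6 and 38.4 FPKM in Con 1 to 4 and 6.74, 4.57, 12.6 and 11.1 FPKM in 6-OHG 1 to 4 (log2 change -1.87 ± 0.24 SE, adjusted p = 0.000179). Mag fell by 0.86, Ermn by 1.02 and Opalin by 0.91, whereas the major myelin gene Mbp (-0.43, adjusted p = 0.182) did not pass. Of 12 precursor markers 7 fell and 1 rose, against 14.4% and 16.3% of all genes. Of the 11 with a 6-OHG mean of 1 FPKM or more 6 fell. Olig2, a transcription factor of the whole lineage, stood at 12.5, 12.8, 11.3 and 15.3 FPKM in Con 1 to 4 and 2.77, 5.899, 5.34 and 5.25 FPKM in 6-OHG 1 to 4 (log2 change -1.29 ± 0.18 SE, adjusted p = 0.000263). Olig1 fell by 0.95, Sox10 by 0.77 and Gpr17 by 0.98; Vcan rose by 0.32, a call lost with the trend on length and GC content removed, and Pdgfra, the receptor that defines precursors, changed by 0.07 (adjusted p = 0.664). The 14 mature markers summed to 1390, 1417, 1568 and 1860 FPKM in Con and 774, 1127, 1424 and 1204 FPKM in 6-OHG. Levels of these markers and of the cholesterol genes moved in the same direction, and the part of the former in the latter was not tested.

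**Figure D4:**
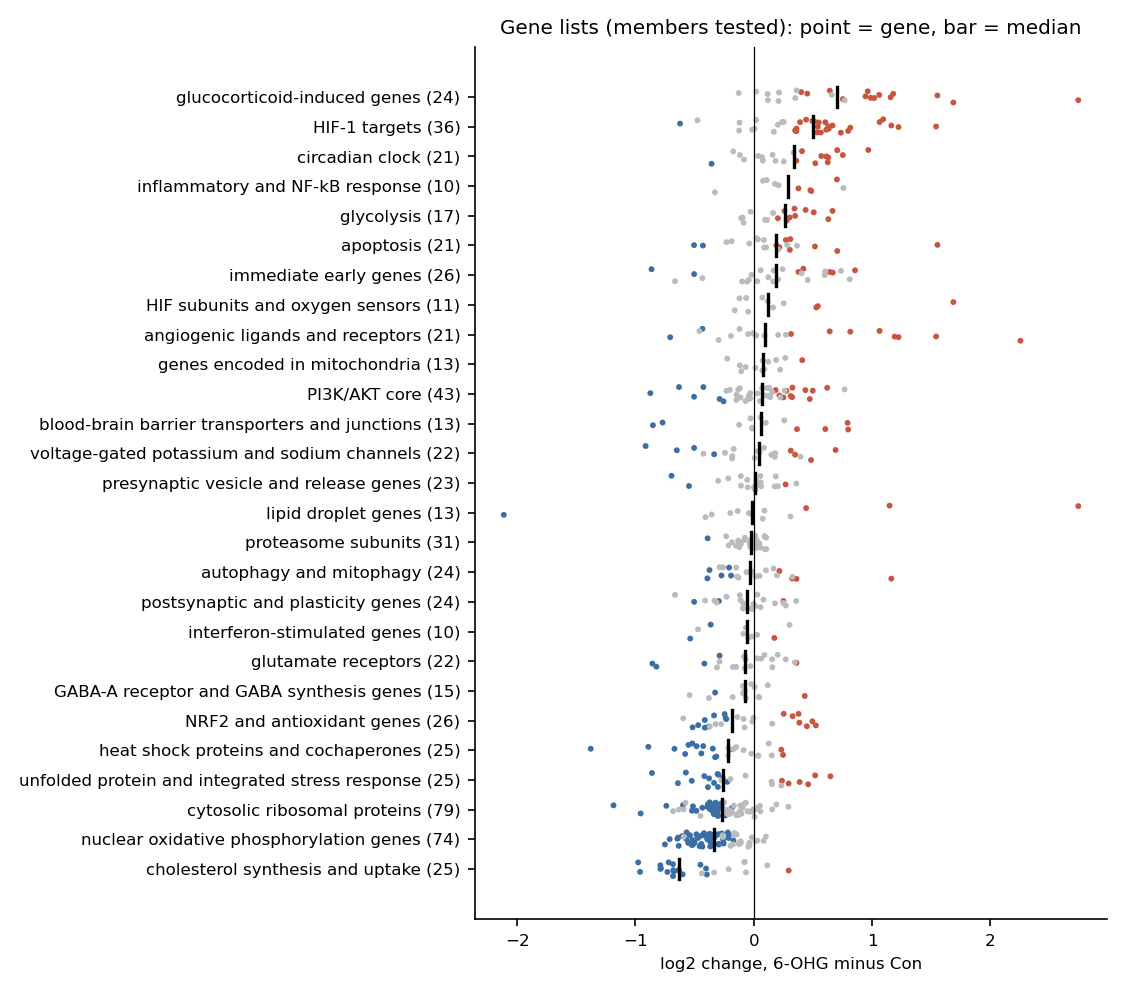
Log2 change (6-OHG minus Con) of each tested member of 27 pathway lists, with called members in red (higher) or blue (lower), others in grey, a black bar at the list's median and the number tested in brackets. Medians run from 0.71 for glucocorticoid-induced genes to -0.63 for cholesterol synthesis. They include members with a Con mean under 1 FPKM, which were tested only through higher levels elsewhere.

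Chaperones of the cytosol and of the endoplasmic reticulum were mostly lower. Of 25 heat shock genes 13 fell and 2 rose, against 14.4% and 16.3% of all genes, with a median of -0.21. Cryab, a small heat shock protein abundant in oligodendrocytes and muscle, stood at 49.9, 55.7, 50.8 and 59.7 FPKM in Con 1 to 4 and 17.2, 20.7, 22.5 and 20.4 FPKM in 6-OHG 1 to 4 (log2 change -1.38 ± 0.11 SE, adjusted p = 6.72e-06). Hsph1, a partner of Hsp70, stood at 40.8, 39.4, 41.1 and 31.9 FPKM in Con 1 to 4 and 20.8, 16.9, 20.2 and 23.04 FPKM in 6-OHG 1 to 4 (log2 change -0.89 ± 0.11 SE, adjusted p = 0.000116). Hspa8, the constitutive Hsp70, fell by 0.58 and Hsf1, the master regulator, by 0.44, while the inducible Hspa1a (0.04) and Hspa1b (0.15) did not pass. In the unfolded protein and integrated stress response, 13 of 25 fell and 6 rose, against 14.4% and 16.3% of all genes. Calr, a calcium-binding chaperone, stood at 115, 108, 118 and 101 FPKM in Con 1 to 4 and 61.5, 56.4, 61.5 and 62.4 FPKM in 6-OHG 1 to 4 (log2 change -0.86 ± 0.07 SE, adjusted p = 4.19e-06). Pdia6 fell by 0.64 and Creld2 by 0.52. Hspa5, the chaperone BiP, fell by 0.30, but not with equal sums or without Con 1, Con 3 or 6-OHG 1. The sensors Ern1 (0.46) and Eif2ak3 (0.30) rose, as did Ppp1r15a, which restores translation by dephosphorylating eIF2, from 3.11 ± 0.411 to 5.44 ± 0.621 FPKM (SD, n = 4 each). Ddit3, the factor CHOP, changed by 0.23 (adjusted p = 0.116).

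Of 79 cytosolic ribosomal protein genes 40 fell, against 14.4% of all genes, and the other 39 did not pass the test, with a median of -0.26. Rps21 stood at 67.4, 65.1, 54.9 and 62.2 FPKM in Con 1 to 4 and 37.7, 43.1, 49.7 and 43.5 FPKM in 6-OHG 1 to 4 (log2 change -0.51 ± 0.09 SE, adjusted p = 0.000933). Rps16 fell by 0.35 and Rps9 by 0.52. The count depended on scale and length: 28 fell with equal nuclear sums, 25 with equal sums and 21 with the trend on length and GC content removed, and it ranged from 23 to 45 with 1 library left out. The median exon length of the list is 1770 bases. Reads of these genes can also be shared with their many pseudogenes. Proteasome subunits served as a contrast, with 1 of 31 lower (Psmb5, -0.39) and a median of -0.02; Psmb5 lost its call with the trend removed. Antioxidant genes divided: 7 of 26 rose and 9 fell, against 16.3% and 14.4% of all genes. The glutathione-synthesis gene Gclc stood at 12.9, 12.1, 12.2 and 14.04 FPKM in Con 1 to 4 and 18.9, 19.3, 18.1 and 19.2 FPKM in 6-OHG 1 to 4 (log2 change 0.53 ± 0.06 SE, adjusted p = 6.01e-05). Hmox1, which breaks down heme, rose by 0.50 and Nqo1 by 0.45, the latter not without Con 1, Con 2 or 6-OHG 4; the peroxiredoxins Prdx2 and Prdx6 fell by 0.52 and 0.41 and Gstp1, a glutathione transferase, by 0.47.

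The PI3K/AKT pathway that the title names relays insulin and growth factor signals from receptors through the lipid kinase PI3K to AKT and the mTOR complexes. Of 43 core genes 11 rose and 6 fell, against 16.3% and 14.4% of all genes, and the median was 0.07. The trend on length bears on it, since the list's median exon length is 7721 bases, and with that trend removed 7 rose and 7 fell. At the receptor level Insr stood at 4.36, 4.18, 4.31 and 4.85 FPKM in Con 1 to 4 and 6.36, 6.66, 6.58 and 6.53 FPKM in 6-OHG 1 to 4 (log2 change 0.47 ± 0.06 SE, adjusted p = 0.000145). Irs2 rose by 0.32, Igf1r changed by 0.05 (adjusted p = 0.589) and Igf2, the ligand, fell by 0.63. The call of Irs2 was lost without Con 2, and that of Igf2 without any 1 Con library or without 6-OHG 1 or 3. Of the kinase itself the regulatory subunit Pik3r1 rose by 0.33, and the catalytic subunit Pik3ca changed by 0.13 (adjusted p = 0.133). The call of Pik3r1 was lost with the trend removed.

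Among the AKT isoforms Akt2 stood at 12.9, 14.1, 10.1 and 6.95 FPKM in Con 1 to 4 and 5.54, 3.77, 6.53 and 5.95 FPKM in 6-OHG 1 to 4 (log2 change -0.87 ± 0.19 SE, adjusted p = 0.00412). Akt1 (0.09, adjusted p = 0.339) did not pass. Downstream, Tsc1, a brake on mTOR complex 1, stood at 7.28, 6.55, 7.32 and 7.496 FPKM in Con 1 to 4 and 11.1, 13.4, 11.01 and 10.8 FPKM in 6-OHG 1 to 4 (log2 change 0.62 ± 0.07 SE, adjusted p = 7.67e-05). Rictor, of mTOR complex 2, rose by 0.44, Rps6kb1, the S6 kinase, by 0.31, and Mtor itself changed by 0.03 (adjusted p = 0.68). Bcl2, an inhibitor of apoptosis, stood at 2.59, 2.34, 2.84 and 2.204 FPKM in Con 1 to 4 and 1.32, 1.43, 1.595 and 1.49 FPKM in 6-OHG 1 to 4 (log2 change -0.50 ± 0.07 SE, adjusted p = 0.000295). In the apoptosis list 8 of 21 rose and 2 fell, against 16.3% and 14.4% of all genes. Of those that rose 2 had a Con mean under 1 FPKM and were tested only through higher levels elsewhere. Of the 19 others tested 6 rose. Pmaip1, a p53-induced activator of cell death, went from 0.486 ± 0.0808 to 1.42 ± 0.0879 FPKM (SD, n = 4 each), Apaf1 rose by 0.52, and Cycs, cytochrome c, fell by 0.43. Bax (-0.19) did not pass. Of 24 autophagy genes 4 rose and 5 fell, near the 16.3% and 14.4% of all genes. Beside Bnip3, its relative Bnip3l rose by 0.36, and Gabarap and Map1lc3a, which coat the autophagosome, fell by 0.37 and 0.39.

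Neuronal and synaptic genes changed little as groups. Of 23 presynaptic genes 1 rose and 2 fell and of 24 postsynaptic genes 1 rose and 2 fell, with medians of 0.01 and -0.06; both shares are under the 30.7% of all genes. Unc13a, which primes synaptic vesicles, stood at 30.4, 34.3, 28.3 and 18.8 FPKM in Con 1 to 4 and 19.2, 12.2, 18.3 and 17.1 FPKM in 6-OHG 1 to 4 (log2 change -0.69 ± 0.17 SE, adjusted p = 0.00787), with Con 4 inside the range of 6-OHG. Bdnf, the neurotrophin, went from 2.83 ± 0.724 to 1.69 ± 0.459 FPKM (SD, n = 4 each) (log2 change -0.50 ± 0.17 SE, adjusted p = 0.0442), and that call was lost in 14 of the other settings, 6 of them leaving out 1 library (all but Con 4 and 6-OHG 3). Of 22 glutamate receptor genes 1 rose and 4 fell, a share under the 30.7% of all genes. Grm3, a metabotropic receptor of neurons and glia, stood at 12.01, 13.9, 12.9 and 10.1 FPKM in Con 1 to 4 and 6.68, 4.35, 7.24 and 7.21 FPKM in 6-OHG 1 to 4 (log2 change -0.86 ± 0.14 SE, adjusted p = 0.000658). Grm4 fell by 0.82. In the GABA list Gabrb2 rose by 0.43 and Gabrb1 fell by 0.33, out of 15, the latter not with equal sums. That share too is under the 30.7% of all genes. Of 22 potassium and sodium channel genes 4 rose and 4 fell, near the 16.3% and 14.4% of all genes. Kcna1 stood at 10.5, 10.6, 12.4 and 11.1 FPKM in Con 1 to 4 and 18.7, 20.4, 18.4 and 17.2 FPKM in 6-OHG 1 to 4 (log2 change 0.69 ± 0.09 SE, adjusted p = 0.00024) and its relative Kcna6 fell by 0.91, from 16.6 ± 1.21 to 8.41 ± 1.43 FPKM (SD, n = 4 each). Tubb3, the neuronal tubulin, stood at 130.0, 131, 132 and 159 FPKM in Con 1 to 4 and 72.05, 99.8, 61.1 and 65.7 FPKM in 6-OHG 1 to 4 (log2 change -0.90 ± 0.13 SE, adjusted p = 0.00033), while Rbfox3 (0.19) and Snap25 (0.00) did not pass.

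Immediate early genes, which neurons switch on when active, gave 5 higher and 2 lower of 26, a share near the 30.7% of all genes. The list summed to 357, 364, 313 and 173 FPKM in Con and 364, 218, 411 and 361 FPKM in 6-OHG, so that Con 4 and 6-OHG 2 stood low. Ier2 stood at 3.17, 3.65, 3.01 and 1.75 FPKM in Con 1 to 4 and 6.05, 5.17, 8.04 and 4.84 FPKM in 6-OHG 1 to 4 (log2 change 0.86 ± 0.17 SE, adjusted p = 0.0031). Jun rose by 0.42, and Nptx2, an activity-regulated pentraxin, fell by 0.86. Fos (0.60, adjusted p = 0.132), Egr1 (0.41, adjusted p = 0.447) and Arc (0.06, adjusted p = 0.945) did not pass. Regional markers differed between libraries of a group. The 11 striatal markers summed to 466, 439, 363 and 273 FPKM in Con and to 430, 80.5, 168 and 429 FPKM in 6-OHG, so that 6-OHG 2 and 3 stood low. All 11 changes were negative (median -0.58) and 0 passed limma's test, adjusted or at an unadjusted p under 0.05. The choroid plexus carrier Ttr was listed at 330.1, 686, 317 and 275 FPKM in Con 1 to 4 and 43.8, 1.67, 299 and 353 FPKM in 6-OHG 1 to 4 and did not pass (log2 change -2.66 ± 1.21 SE, adjusted p = 0.113). The 8 cortical markers summed to 123 FPKM in Con 4 and 171 FPKM in 6-OHG 2, against 245 to 345 FPKM elsewhere. Of the 7 thalamic markers 3 fell, against 14.4% of all genes, among them Tnnt1 by 0.75. Apart from Tnnt1, those calls were each lost without Con 2, Con 3, Con 4 or 6-OHG 1. The part of these regional differences in the neuronal values was not tested.

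Microglial markers were lower: all 18 changes were negative and 10 passed, against 14.4% of all genes lower, with a median of -0.42. Tmem119, a marker of resident microglia, stood at 7.02, 7.02, 6.15 and 5.201 FPKM in Con 1 to 4 and 2.996, 2.705, 4.47 and 3.97 FPKM in 6-OHG 1 to 4 (log2 change -0.71 ± 0.13 SE, adjusted p = 0.00133). Itgam, the integrin CD11b, fell by 0.71 and C1qa, of the complement cascade, by 0.40, whereas Cx3cr1 (-0.26, adjusted p = 0.264) and Trem2 (-0.14, adjusted p = 0.33) did not pass. The call of C1qa was lost with the trend on length and GC content removed. Of the 23 inflammatory genes 10 passed the filter on low values and 4 of those rose. Of these 4, 3 rose from a Con mean under 1 FPKM, Tnfaip3 among them. They were tested only through higher levels elsewhere, so the count supports nothing about the list. Tnfaip3, a brake on NF-kB, stood at 0.797, 0.721, 0.732 and 0.508 FPKM in Con 1 to 4 and 1.69, 1.65, 1.98 and 1.67 FPKM in 6-OHG 1 to 4 (log2 change 0.70 ± 0.09 SE, adjusted p = 0.0002). Of 10 interferon-stimulated genes tested 1 rose and 2 fell, and Ifi27 fell by 0.54. Of 13 astrocyte markers 1 rose and 3 fell, a share near the 30.7% of all genes, as was that of the interferon-stimulated genes. Gjb6, a gap junction protein, stood at 13.2, 13.9, 13.1 and 19.5 FPKM in Con 1 to 4 and 23.8, 37.5, 32.5 and 22.4 FPKM in 6-OHG 1 to 4 (log2 change 0.90 ± 0.17 SE, adjusted p = 0.00161). Aqp4, the water channel of astrocyte endfeet, stood at 15.6, 13.5, 16.7 and 20.96 FPKM in Con 1 to 4 and 6.97, 13.1, 9.42 and 7.85 FPKM in 6-OHG 1 to 4 (log2 change -0.79 ± 0.17 SE, adjusted p = 0.00481). Gja1 fell by 0.58, and Gfap changed by -0.36 (adjusted p = 0.253).

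**Figure D5:**
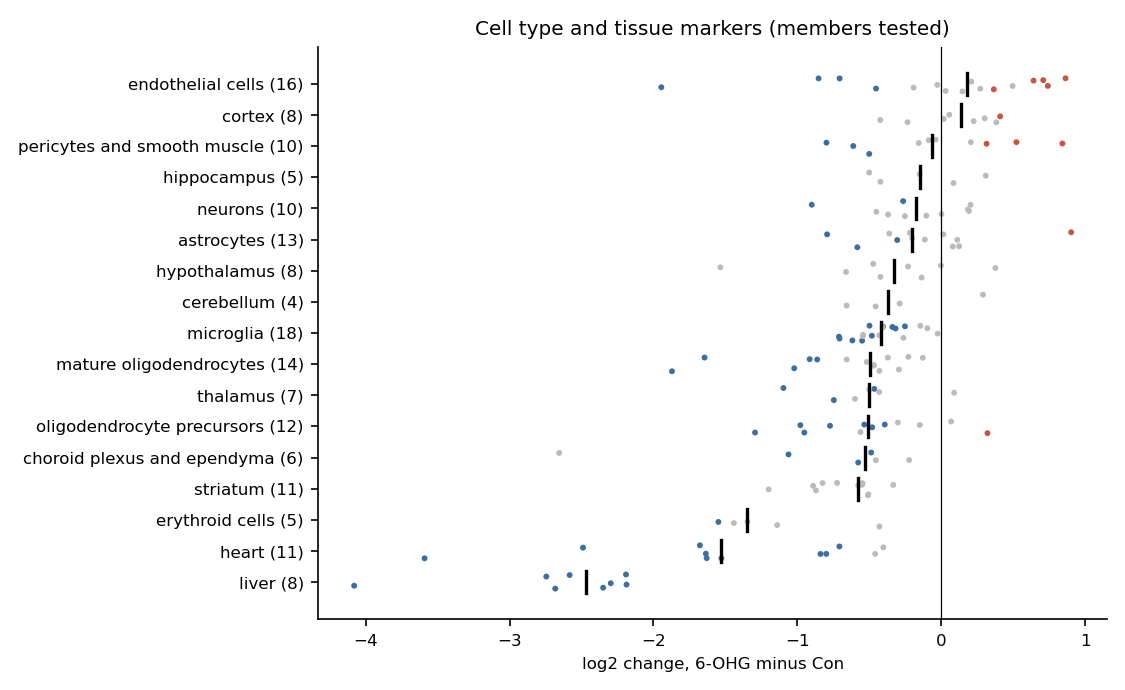
Log2 change (6-OHG minus Con) of each tested marker of cell types, brain regions and other tissues, with called genes in red or blue, others in grey, and a black bar at the median. Liver and heart genes lie lowest, and the 18 microglial and 14 mature oligodendrocyte markers all lie below 0.

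The largest falls were of transcripts made by liver and heart. All 8 liver genes tested fell, and 15 further liver genes were under the filter. The mean of each of the 8 in 6-OHG was under 1 FPKM, so they were tested only through their higher levels elsewhere. Their count therefore supports nothing about the list. Of the 9 heart genes that fell, 7 were of this kind too. Alb, serum albumin, stood at 18.1, 14.3, 18.9 and 18.2 FPKM in Con 1 to 4 and 0.106, 0.0867, 0.0198 and 0.113 FPKM in 6-OHG 1 to 4. Fabp1, the fatty acid carrier of liver, was at 4.46, 3.27, 5.11 and 3.74 FPKM in Con and listed at 0 in all 4 6-OHG libraries, as were Serpina3k and Mup7. Apoa2 and Apoa1, proteins of high-density lipoprotein, went from 6.68 ± 2.34 to 0.115 ± 0.168 FPKM (SD, n = 4 each) and from 4.57 ± 1.25 to 0.208 ± 0.121 FPKM (SD, n = 4 each). Mup20, Mup3 and Mup7 are near-identical members of a family, so their values are uncertain. Of 11 heart genes tested 9 fell. Nppa, atrial natriuretic peptide, stood at 17.4, 20.7, 17.4 and 8.49 FPKM in Con 1 to 4 and 0.481, 0.958, 0.107 and 0.0266 FPKM in 6-OHG 1 to 4. Myl7, the atrial myosin light chain, went from 5.697 ± 1.39 to 0.182 ± 0.152 FPKM (SD, n = 4 each) and Myh6, the cardiac myosin heavy chain, from 5.17 ± 1.96 to 1.06 ± 0.1599 FPKM (SD, n = 4 each). Of 5 red cell genes 1 fell, Hbb-bt, from 51.6 ± 22.1 to 17.4 ± 8.66 FPKM (SD, n = 4 each) (log2 change -1.55 ± 0.51 SE, adjusted p = 0.0345), and its copies share reads with other globin genes; the call was lost without Con 1, 2 or 4 or without 6-OHG 3 or 4. With the liver and heart genes left out before rescaling, an alternative added after seeing the data, 4390 genes passed, 2806 higher and 1584 lower.

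Single rises outside those groups were led by Wnt10b, a Wnt ligand, at 0.289, 0.274, 0.127 and 0.264 FPKM in Con 1 to 4 and 7.93, 4.76, 5.01 and 3.52 FPKM in 6-OHG 1 to 4 (log2 change 2.30 ± 0.22 SE, adjusted p = 2.81e-05). Gipr, the receptor of the incretin hormone GIP, stood at 0.7195, 0.671, 0.6804 and 0.7201 FPKM in Con 1 to 4 and 3.15, 3.94, 4.204 and 3.87 FPKM in 6-OHG 1 to 4 (log2 change 1.49 ± 0.11 SE, adjusted p = 4.19e-06). Both genes had a Con mean under 1 FPKM, so they were tested only through higher levels elsewhere. The naming rule also required that their libraries do not overlap. Non-coding classes rose more often than they fell: of 231 long intergenic RNAs 57 were higher and 12 lower, and of 219 antisense RNAs 51 were higher and 7 lower, against 1970 and 1841 of 12027 protein-coding genes. Processed pseudogenes gave 44 higher and 99 lower of 746. No source used here says that counting used strand, so reads of antisense genes cannot be told apart from those of their partners.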

How the data were processed

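RNA of mouse brain was extracted with Trizol and sequenced as paired reads of 150 bases on a NovaSeq 6000, per the labels' protocols. The authors deposited 1 table of FPKM per gene; the submitters' processing notes name edgeR, DESeq2, StringTie 2.1.6, HISAT2 2.2.1, featureCounts 1.5.0-p3, FastQC and cutadapt 1.9 with the builds GRCm38 and mm10, without roles, and read totals are not given in the sources used here. Values were taken as log2(FPKM + 1) for genes that averaged 1 FPKM or more over 13 libraries. They were fitted with limma 3.58.1 (R 4.3.3), 1 mean per group and moderated variances with a trend, and tested as 6-OHG minus Con with Benjamini-Hochberg adjustment over 13905 genes; an adjusted p under 0.05 counts as called. Of 37636 gene IDs 37499 matched a symbol in the reference tables. Coordinates and exon lengths come from GENCODE M21 (GRCm38), promoter bases from RefSeq.

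Members and lists were chosen with earlier results of these data known. Named genes are a selection from the 15 largest rises and 15 largest falls among called, named nuclear protein-coding genes without overlap and from the 5 smallest p-values of each list. Lists are described by counts and medians, without a test. The fit was checked on simulated data, and 24 other settings were run. Among the lists, 1 gene had no entry in the table. The heart muscle list was added after values were seen. Results for a few genes are not reported here.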

Additional observations from a re-analysis of the deposited data

Results flagged for a closer look

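For genes taken up in the text, the gap between the highest or lowest of the 4 libraries of a group and its nearest neighbour was divided by the range of the group. A share above Dixon's 95% critical value for 4 libraries was found in 36 of 418 groups, where chance gives about 1 in 20. Genes of 1 sample are not independent, and 23 of the 36 fell on 2 libraries.

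In 14 groups 6-OHG 2 stood apart, with shares for Apaf1 (0.855), Calr (0.8507), Cdkn1a (0.8639), Cirbp (0.8598), Cox5a (0.8691), Egr1 (0.8625), Ern1 (0.9086), Hmgcs1 (0.8741), Mup20 (1.0), Nptx2 (0.9256), P4ha1 (0.8481), Plin4 (0.8428), Sult1a1 (0.8338) and Tsc1 (0.9199). Hmgcs1, the enzyme that commits carbon to sterol synthesis, read 25.8, 37.6, 24.6 and 26.3 FPKM in the 6-OHG libraries. In 9 groups Con 4 stood apart, with shares for Akt1 (0.9117), Egr1 (0.9191), Gjb6 (0.877), Hmgcs1 (0.9329), Ndrg1 (0.8376), Pdgfrb (0.8657), Per1 (0.9222), Trf (0.8738) and Tubb3 (0.9352). In Con, Hmgcs1 read 55.8, 55.8, 55.7 and 58.3 FPKM and the immediate early gene Egr1 49.4, 48.7, 46.6 and 14.3.

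The other 13 groups were spread over 5 libraries. 6-OHG 3 stood apart for Cdh5 (0.8325), Flt1 (0.8679), Ifi27 (0.876), Mup3 (1.0) and Tnfaip3 (0.8896). 6-OHG 4 stood apart for Mvk (0.8819) and Slco1a4 (0.9055). Con 2 stood apart for Gabarap (0.9196), Gapdh (0.8656) and Ttr (0.865), Con 3 for Pmaip1 (0.8974) and Wnt10b (0.8469) and Con 1 for Angpt2 (0.8934). The major urinary protein genes Mup20 and Mup3 were listed at 0 in all but 1 library of the 6-OHG group each, which makes the share 1.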

How the results depend on the processing

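Under the 24 other settings, 0 of the 4268 genes called turned to a call in the other direction. A filter at 5 FPKM gave 2663 called genes, 1243 higher and 1420 lower, out of fewer genes tested, and requiring a log2 change of at least 1 gave 131, with 74 higher and 57 lower. Leaving out 1 library gave 3427 to 4222 called genes, 1841 to 2141 of them higher and 1522 to 2123 lower. The fit on the 8 libraries alone gave 3236, equal sums 3603 (58.7% higher), equal nuclear sums 4399 (64.2% higher), sample weights 4790 and removal of the trend on length and GC content 4024. Of 205 called genes that the text or the naming rule takes up, 134 kept their call in every setting run for them, the one requiring a change of at least 1 aside, and 34 lost it only in fits with the replicate block. With no read totals, the depth that limits low genes is unknown.

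The groups share replicate numbers, but nothing in the labels ties a number to an animal, batch or day. Deviations of same-numbered libraries from their group means correlated at 0.303, -0.483, -0.018 and -0.162 across genes, so the numbers were not taken to pair samples, and not every library correlated best with its own number (Con 4 with 6-OHG 2 at 0.651). A replicate block gave 1547 called genes (808 higher, 739 lower), and the block with the length and GC trend removed gave 1393 (738 higher, 655 lower); the cause was not tested.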

Other observations

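A few genes outside the lists, chosen after their values were seen, stood among the clearest changes. Rbm3, an RNA-binding protein induced by cold, stood at 15.4, 15.7, 13.1 and 14.8 FPKM in Con 1 to 4 and 35.4, 35.7, 34.2 and 33.4 FPKM in 6-OHG 1 to 4 (log2 change 1.18 ± 0.06 SE, adjusted p = 4.19e-07). Cirbp, its cold-inducible relative, stood at 17.5, 18.6, 14.8 and 22.7 FPKM in Con 1 to 4 and 30.5, 43.9, 31.5 and 29.5 FPKM in 6-OHG 1 to 4 (log2 change 0.84 ± 0.13 SE, adjusted p = 0.000583). For both genes every 6-OHG library lay above every Con library; body temperature is not among the labels. Beside Tubb3, the tubulins Tuba1a, Tubb5 and Tubb2b fell by 0.67, 0.67 and 0.94, whereas Tubb6 rose from 1.002 ± 0.0805 to 4.07 ± 0.7903 FPKM (SD, n = 4 each).

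Cxcl12, a chemokine of vessels and neurons, stood at 8.46, 10.9, 8.17 and 7.25 FPKM in Con 1 to 4 and 2.02, 3.08, 2.85 and 2.504 FPKM in 6-OHG 1 to 4 (log2 change -1.42 ± 0.11 SE, adjusted p = 5.84e-06), with no overlap. Fa2h, which makes the hydroxylated fatty acids of myelin lipids, stood at 18.7, 21.7, 21.4 and 29.3 FPKM in Con 1 to 4 and 5.93, 7.92, 11.6 and 10.1 FPKM in 6-OHG 1 to 4 (log2 change -1.28 ± 0.23 SE, adjusted p = 0.00124). Trf, the iron carrier transferrin, fell by 1.20, from 81.7 ± 25.2 to 34.9 ± 9.32 FPKM (SD, n = 4 each). In glucose storage, Gbe1, the glycogen branching enzyme, went from 2.14 ± 0.212 to 6.25 ± 0.516 FPKM (SD, n = 4 each) (log2 change 1.21 ± 0.08 SE, adjusted p = 2.11e-06) and Slc37a4, the glucose-6-phosphate transporter, from 5.25 ± 0.3796 to 16.4 ± 3.11 FPKM (SD, n = 4 each) (log2 change 1.46 ± 0.11 SE, adjusted p = 4.38e-06).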
